A study of Mus musculus with 8 samples.

Results

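The disease-associated microglia genes are a set of transcripts that rise in brain microglia lying next to amyloid plaques. Here the set comprised 10 named genes, Trem2, Tyrobp, Clec7a, Itgax, Axl, Apoe, Lpl, Cst7, Gpnmb and Spp1, chosen by name among the 53710 genes of the deposited table, and each of the 10 matched 1 row. Their levels were measured by RNA sequencing of mouse pineal gland, in 4 libraries of 5xFAD mice, named 5xFAD-1, 5xFAD-2, 5xFAD-3 plus 5xFAD-21, and 4 of wild type mice, named WT-11, WT-21, WT-22 plus WT-23. Values given library by library follow this order within each group. The 5xFAD mice carry human transgenes with familial Alzheimer mutations, that of APP among them, driven by the neuronal Thy1 promoter, on a B6 background, and were obtained from The Jackson Laboratory. The wild type mice were C57BL/6 animals of another supplier, so supplier and genotype cannot be told apart. All mice of both groups were stated to be male, were killed at 5 months of age at zeitgeber time 0.5 h, counted from lights on, and the glands of 5 to 7 mice were pooled for each library. The values are FPKM, in which the fragments of a gene are divided by its transcript length and by the depth of its library, so that levels can be compared between genes of different length.

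Microglia are the resident macrophages of the brain. TREM2 is a surface receptor for lipids and lipoproteins that signals through the adaptor TYROBP, also called DAP12, and in mouse models of amyloid deposition the full disease-associated state requires it. In that state homeostatic genes such as P2ry12 and Tmem119 fall, and genes of phagocytosis, lysosomes and lipid handling rise. The pineal gland, which makes melatonin at night, lies outside the blood-brain barrier and holds its own macrophages among the pinealocytes. Several of the 10 genes are not specific to microglia: Apoe is made by astrocytes, Lpl by adipocytes and muscle, Spp1 by osteoclasts and osteoblasts, and Gpnmb by melanocytes and osteoclasts.

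Some libraries stood apart. WT-22 held Xist, the RNA of the inactive X chromosome, at 13.3 FPKM, against at most 0.0404 FPKM in each of the other 7 libraries, which goes against its stated sex. 5xFAD-2 held Ucp1, the uncoupling protein of brown fat, at 516 FPKM and the fat hormone gene Adipoq at 62.2 FPKM, against at most 0.193 and 0.305 FPKM in the other 7. Of 6 choroid plexus genes, Ttr, which encodes transthyretin, had a listed value of 0 in every 5xFAD library, against 9440 to 19630 FPKM in wild type. The other 5 (Kl, Folr1, Aqp1, Kcnj13 and Clic6) were low in 5xFAD-1, where they summed to 53.7 FPKM, and their sums otherwise overlapped, at up to 809.98 FPKM in 5xFAD and 328 to 620.03 FPKM in wild type. The list of 8 osteoblast genes, markers of bone, summed to 17.9 to 77.8 FPKM in 5xFAD and 26.8 to 170 FPKM in wild type. The share of unread bases was low in WT-11 and in each 5xFAD library but 5xFAD-21, and high in the other 4, and the GC rate of the reads was lower in every 5xFAD library than in every wild type library, so GC rate and genotype cannot be told apart. From the steps of low values, 1 fragment per kilobase of transcript was worth 0.0556 to 0.0905 FPKM.

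Across the 8 libraries the 10 genes fell into steps of level. Apoe led with a mean of 1110 FPKM, and its lowest library, at 994 FPKM, lay far above the highest library of any other member. Spp1 (mean 55.6 FPKM), Lpl (44.4 FPKM), Tyrobp (34.1 FPKM) and Axl (19.5 FPKM) followed, and their ranges overlapped from each to the next. Gpnmb (5.40 FPKM), Trem2 (3.52 FPKM) and Clec7a (2.88 FPKM) formed a lower step, also overlapping, with the highest Gpnmb library at 13 FPKM below the lowest Axl library at 13.6 FPKM. Itgax averaged 1.05 FPKM and overlapped Clec7a. Cst7 averaged 0.171 FPKM, and its highest library, at 0.334 FPKM, lay below the lowest Itgax library at 0.485 FPKM. In every library the receptor Trem2 lay below its adaptor Tyrobp. Macrophage transcripts were detected in every library, with the 10 genes of the general macrophage list (such as Csf1r, C1qa and Aif1) summing to 131 to 263 FPKM in 5xFAD and 142 to 306 FPKM in wild type. None of the 9 homeostatic microglia genes tested was at 0 as a group mean, and they summed to 64.4 to 96.5 FPKM in 5xFAD and 80.2 to 101 FPKM in wild type.

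**Figure D1:**
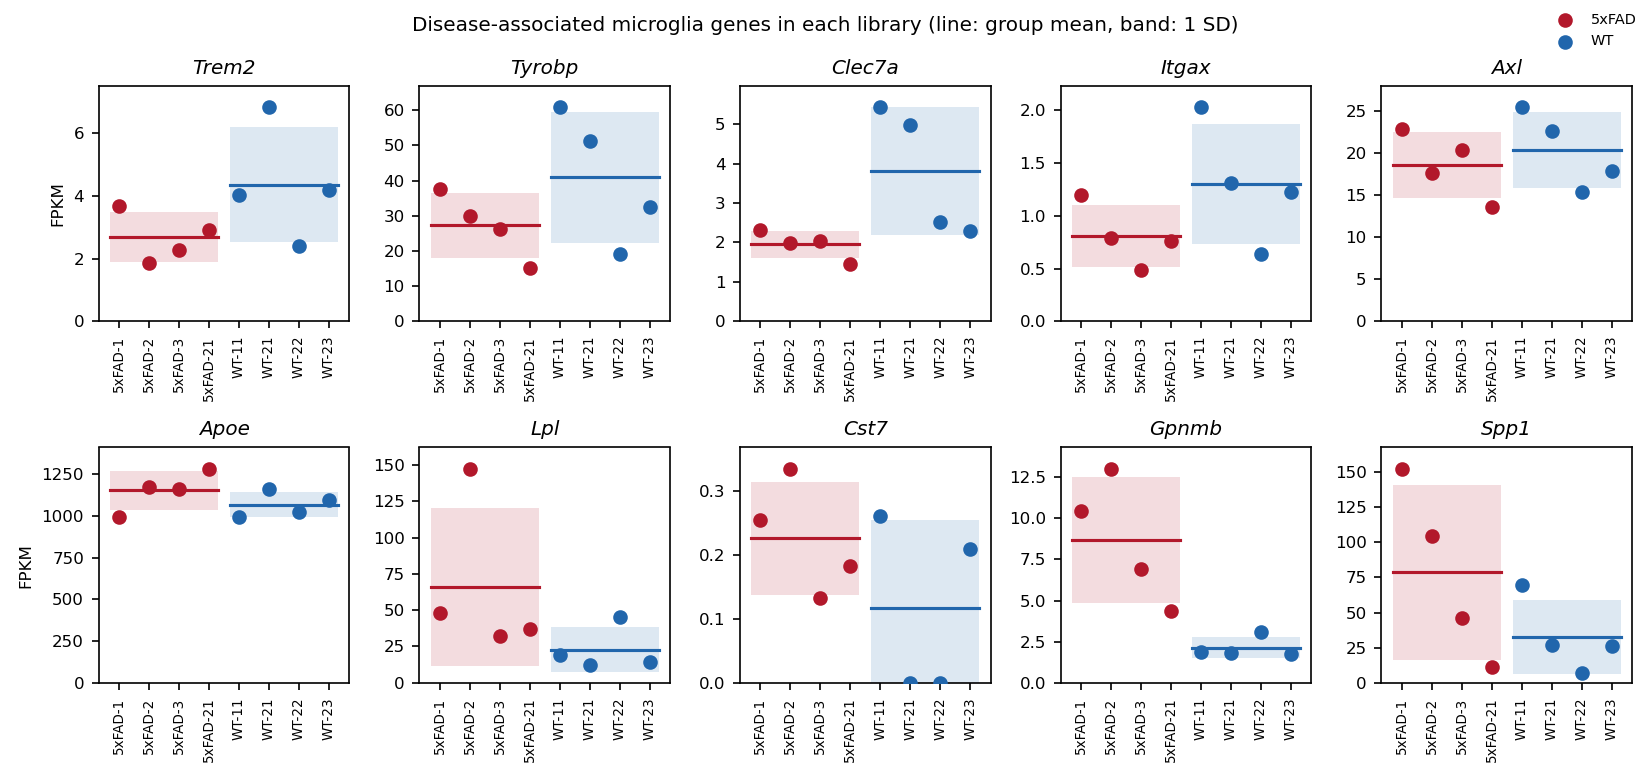
FPKM of each of the 10 genes (y axis, linear, from 0) in the 4 5xFAD libraries (red, left) and the 4 wild type libraries (blue, right), with the group mean as a line and 1 SD as a band. Gpnmb is the panel in which all 4 red points, from 4.36 to 13 FPKM, lie above all 4 blue points, from 1.73 to 3.07 FPKM.

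The glands of the 2 genotypes were compared gene by gene, in a study of RNAs associated with the pineal gland in an Alzheimer model. Of the 10 genes, Gpnmb stood about 4 times higher in 5xFAD, Lpl and Spp1 had higher means in 5xFAD with overlapping groups, Apoe was nearly level, and Trem2, Tyrobp, Clec7a, Itgax and Axl had lower means in 5xFAD. Fold changes were tested with limma on log2(FPKM + 0.1) over 13075 protein-coding genes with a mean of at least 1 FPKM, with adjustment over all of them. Of the 10 genes, 8 entered this fit. Cst7 lay under the minimum, and Clec7a is annotated as a polymorphic pseudogene, so it was tested over all 15719 rows with a mean of at least 1 FPKM. At an unadjusted p of 0.05, 2 of the 8 genes passed, Gpnmb and Lpl, both higher in 5xFAD, where 7.93% of all genes tested passed in either direction, 4.57% as higher and 3.36% as lower. This count was 1 without 5xFAD-2 (beside 5.14% of all genes), without WT-11 (6.28%), without WT-21 (3.9%) and without WT-23 (5.18%). It was 5 without WT-22 (beside 18.1% of all genes), 5 without WT-22 and 5xFAD-21 (15.6%), and 4 without WT-22 and 5xFAD-2 (15.8%). With array weights it was 4 (14.2%), and with the osteoclast mean as a covariate also 4 (13.1%). None passed an adjusted p of 0.05 from limma, and 4 genes of the 13075 did (0.0306%), against 91 without WT-22 (0.696%). Over the 13027 genes above 0 in every library, no gene passed it. Of the 8, 4 had a log2 fold change above 0 and 4 below 0, and their median was −0.01, as was that of all genes tested. The groups did not overlap in 1 of the 8, Gpnmb, beside 4.33% of all genes tested, 2.1% with 5xFAD above and 2.23% with 5xFAD below. The libraries are labelled as biological replicates made from pools, and p values measure the spread between these pools.

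**Figure D2:**
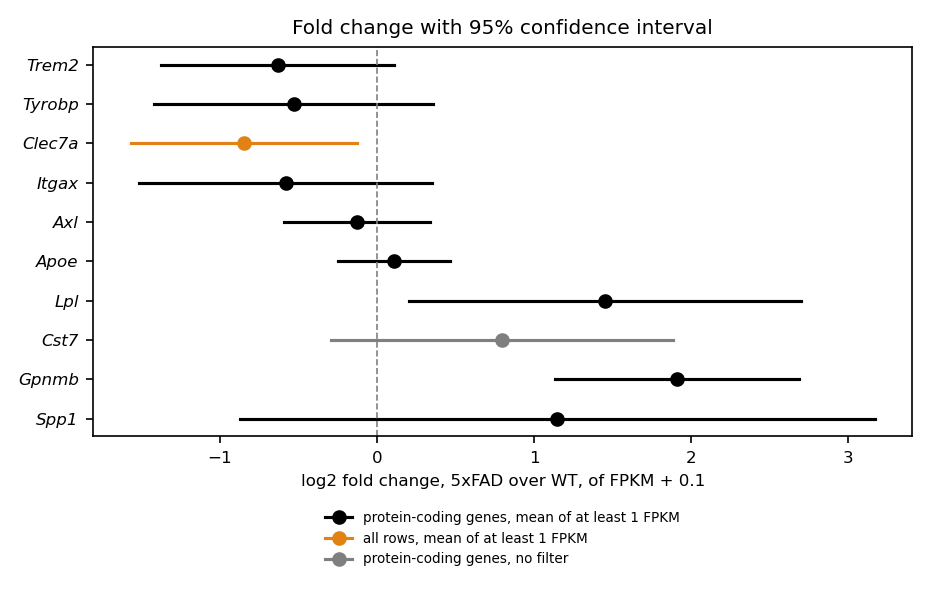
Log2 fold change of each gene, 5xFAD over wild type, on the scale of FPKM + 0.1 (x axis), with the 95% confidence interval from limma as a line. The colour marks the fit: 8 genes among protein-coding genes, Clec7a among all rows and Cst7 without a filter, and the intervals of Clec7a, Lpl and Gpnmb do not reach 0.

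Among the receptors and their adaptor, none had a higher mean in 5xFAD. Trem2, the lipid-sensing receptor, lies on chromosome 17 from 48346401 to 48354147 of GRCm38. It had 3.67, 1.85, 2.28 and 2.92 FPKM in the 5xFAD libraries, against 4.02, 6.83, 2.39 and 4.20 FPKM in the wild type libraries. The groups overlapped, because WT-22 lay within the 5xFAD range while the other 3 wild type libraries lay above all 5xFAD libraries. The log2 fold change was −0.63 (95% confidence interval −1.38 to 0.11, unadjusted p of 0.0863, adjusted p = 0.644 from limma). Without WT-22 it was −0.88 with an unadjusted p of 0.0146 (adjusted p = 0.184), in a fit in which 18.1% of all genes passed an unadjusted p of 0.05, and without WT-21 it was −0.39 with an unadjusted p of 0.235.

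Tyrobp, on chromosome 7 from 30413760 to 30417585, encodes the adaptor that carries the activating tyrosine motif for TREM2 and other myeloid receptors. It had 37.6, 30.0, 26.2 and 15.2 FPKM in the 5xFAD libraries, against 60.8, 51.3, 19.2 and 32.6 FPKM in the wild type libraries. The lowest value of each group came from 5xFAD-21 and WT-22, and the groups overlapped. Its log2 fold change was −0.53 (interval −1.42 to 0.36, adjusted p = 0.737 from limma). It was −0.28 without 5xFAD-21, −0.30 without WT-11, −0.85 without WT-22 (unadjusted p of 0.0319) and −1.02 with a term for low or high share of unread bases (unadjusted p of 0.0145, adjusted p = 0.382). In bulk tissue, fewer macrophages and less RNA of these genes per macrophage cannot be told apart.

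Clec7a encodes dectin-1, a receptor for beta-glucans, and lies on chromosome 6 from 129461591 to 129472779. Its values were 2.31, 1.98, 2.03 and 1.46 FPKM in the 5xFAD libraries, and 5.43, 4.97, 2.52 and 2.30 FPKM in the wild type libraries. In total 3 of the 5xFAD libraries lay below all wild type libraries, and 5xFAD-1 and WT-23 were nearly equal. The log2 fold change was −0.85 over all rows (interval −1.57 to −0.13, unadjusted p of 0.0261, adjusted p = 0.553 from limma), where 8.36% of the rows passed an unadjusted p of 0.05 and 0.0509% an adjusted p of 0.05. It missed an unadjusted p of 0.05 without 5xFAD-21, WT-11 or WT-21, each left out alone, at 0.0697 to 0.0782. The same held with the macrophage mean (0.0895) or the osteoblast mean (0.0633) as a covariate. On FPKM itself an exact two-sided permutation test of the group means gave p = 0.0571 (n = 4 each), where 0.0286 is the smallest p possible.

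Itgax encodes the integrin alpha chain CD11c, which pairs with Itgb2, and lies on chromosome 7 from 128129547 to 128150657. It had 1.20, 0.788, 0.485 and 0.765 FPKM in the 5xFAD libraries, against 2.03, 1.31, 0.640 and 1.22 FPKM in the wild type libraries. The groups overlapped, and the values stood for roughly 7 to 23 fragments a library, as estimated from the steps of low values. That estimate takes the median length of the annotated transcripts, 879.5 bases. A longer main transcript would mean more fragments, so the size of the counting error is uncertain. Its log2 fold change was −0.58 (adjusted p = 0.726 from limma), and it was −0.35 without WT-11 and −0.86 without WT-22 (unadjusted p of 0.0483).

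Axl, on chromosome 7 from 25757273 to 25788705, encodes a receptor tyrosine kinase that binds Gas6 and takes part in the uptake of apoptotic cells. It had 22.9, 17.7, 20.3 and 13.6 FPKM in the 5xFAD libraries, against 25.5, 22.7, 15.4 and 17.9 FPKM in the wild type libraries. The values of both groups lay across the same range. Its log2 fold change of −0.13 had an interval of −0.59 to 0.34 (adjusted p = 0.867 from limma), and its sign turned in 3 of the 29 other settings.

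With all 8 libraries, no gene around these receptors passed an unadjusted p of 0.05. Of the 15 genes of TREM2 signalling, 13 entered the fit, with 10 below 0 and a median log2 fold change of −0.22. Syk, the kinase recruited by TYROBP, averaged 6.38 ± 0.46 FPKM in 5xFAD and 5.94 ± 1.39 FPKM in wild type (SD, n = 4 each), and Plcg2, a phospholipase downstream of it, averaged 2.87 ± 0.34 FPKM in 5xFAD and 3.49 ± 1.21 FPKM in wild type. Inpp5d, the lipid phosphatase SHIP1 that restrains the pathway, had a log2 fold change of −0.56, and Pik3cd, a catalytic subunit of PI3 kinase, one of −0.92 (adjusted p = 0.63 from limma, the smallest of the list). Of the 4 partners of Axl, the ligands Gas6 and Pros1 and the kinases Mertk and Tyro3, none passed, and Gas6 averaged 138 ± 14.3 FPKM in 5xFAD and 171 ± 25.9 FPKM in wild type. Of 9 adhesion partners of Itgax and Spp1 (such as Itgb2, Itgam, Cd44 and Itgav), none passed, and their median was −0.10. Without WT-22, a fit in which 18.1% of all genes passed an unadjusted p of 0.05, 6 of the 13 signalling genes passed as lower in 5xFAD (Vav1, Pik3cd, Inpp5d, Ptpn6, Card9 and Rac2), as did Mertk, Gas6 and, of the adhesion partners, Itgb5.

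Apoe and Lpl belong to lipid transport. Apoe, on chromosome 7 from 19696109 to 19699188, encodes the main apolipoprotein of the brain. It had 996, 1172, 1161 and 1281 FPKM in the 5xFAD libraries, against 994, 1159, 1021 and 1092 FPKM in the wild type libraries. In total 3 of the 5xFAD libraries lay above all wild type libraries, by a small margin, and 5xFAD-1 lay beside the lowest of them. This gave a log2 fold change of 0.11, with an interval of −0.25 to 0.47 (adjusted p = 0.853 from limma). In fold terms Apoe was the member with the narrowest range over the 8 libraries.

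Lpl, on chromosome 8 from 68880491 to 68907448, encodes the lipase that releases fatty acids from lipoproteins. It had 47.9, 147, 32.1 and 37.0 FPKM in the 5xFAD libraries, against 19.0, 12.1, 45.4 and 14.0 FPKM in the wild type libraries. The 5xFAD libraries exceeded WT-11, WT-21 and WT-23, and WT-22 lay among them. The log2 fold change was 1.45 (interval 0.21 to 2.70, unadjusted p of 0.0273, adjusted p = 0.599 from limma). Its highest value came from 5xFAD-2, the library with the fat transcripts, and without that library the log2 fold change was 0.97 (unadjusted p of 0.0565, adjusted p = 0.895). It also missed an unadjusted p of 0.05 without WT-11, WT-21 or WT-23, each left out alone, at 0.0533 to 0.0734. With a term for low or high share of unread bases it missed as well (log2 fold change 1.29, unadjusted p of 0.0881). So it did with a replicate block (unadjusted p of 0.0518) and with the macrophage mean as a covariate (unadjusted p of 0.0854). Without WT-22 the log2 fold change was 1.86 (unadjusted p of 0.0057, adjusted p = 0.140). The 7 adipocyte markers summed to 1745 FPKM in 5xFAD-2, to 1.7 FPKM in the lowest 5xFAD library and to 3.58 to 24.6 FPKM in wild type, and Adipoq was listed at 0 in 5xFAD-1 and 5xFAD-21. With the adipocyte mean as a covariate, an alternative added after the values were seen, the log2 fold change of Lpl was 1.13 (unadjusted p of 0.0372, adjusted p = 0.767 from limma).

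Of the 14 lipid partners of Apoe and Lpl, 12 entered the fit, and 2 passed an unadjusted p of 0.05, both higher in 5xFAD, beside 4.57% of all genes as higher, with a median log2 fold change of −0.02 over the 12. Apoc1, an apolipoprotein gene next to Apoe, had 15.7, 65.7, 13.4 and 13.2 FPKM in the 5xFAD libraries, against 11.7, 7.82, 9.73 and 6.99 FPKM in the wild type libraries. In Apoc1 all 5xFAD libraries lay above all wild type libraries, beside 2.1% of all genes tested, and 5xFAD-2 was highest. Nr1h3, the sterol sensor LXR alpha, averaged 10.7 ± 2.30 FPKM in 5xFAD and 7.38 ± 2.42 FPKM in wild type (SD, n = 4 each) with overlapping groups. The log2 fold changes were 1.21 for Apoc1 and 0.56 for Nr1h3, and neither passed the adjustment (adjusted p = 0.609 and 0.619 from limma). Without 5xFAD-2 the 2 that passed were Apoc1 and Abcg1, beside 5.14% of all genes. Without WT-22 Lrp8, Vldlr, Abcg1 and Nr1h3 passed as higher and Lrp1 and Abca1 as lower, beside 18.1% of all genes in either direction. Abca1 and Abcg1, lipid exporters that LXR controls, stood at −0.33 and 0.39.

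Cst7 encodes cystatin F, an inhibitor of lysosomal cathepsins, and lies on chromosome 2 from 150570415 to 150578944. It was listed at 0.254, 0.334, 0.132 and 0.183 FPKM in the 5xFAD libraries, against 0.260, 0, 0 and 0.209 FPKM in the wild type libraries. These values stood for about 0 to 6 fragments a library, and no difference between the groups was detectable at this depth (log2 fold change 0.80, adjusted p = 0.713 from limma with no filter, where 7.67% of genes passed an unadjusted p of 0.05 and 0.038% an adjusted one). Of its target proteases found in the table, Ctsc, Ctsh, Ctsl and Lgmn, none passed an unadjusted p of 0.05 with all 8 libraries. Their log2 fold changes were −0.23, −0.46, −0.02 and 0.19, in that order. Ctsl averaged 106 ± 18.8 FPKM in 5xFAD and 106 ± 10.5 FPKM in wild type. Without WT-22 Ctsc and Ctsh passed as lower, beside 18.1% of all genes in either direction.

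Gpnmb encodes a transmembrane glycoprotein of lysosomes and melanosomes and lies on chromosome 6 from 49036546 to 49070929 on the plus strand. It had 10.4, 13, 6.92 and 4.36 FPKM in the 5xFAD libraries, against 1.85, 1.83, 3.07 and 1.73 FPKM in the wild type libraries. All 4 5xFAD libraries lay above all 4 wild type libraries, as in 2.1% of all genes tested. The nearest values of the groups were 4.36 FPKM in 5xFAD-21 and 3.07 FPKM in WT-22, and the 3 remaining wild type libraries lay close together. The means were 8.68 ± 3.81 FPKM in 5xFAD and 2.12 ± 0.63 FPKM in wild type (SD, n = 4 each). On the log2 scale the fold change was 1.91 (standard error 0.34, interval 1.13 to 2.68, unadjusted p of 0.000383 from limma), and by p Gpnmb ranked 12 of the 13075 genes. The adjusted p was 0.339, so Gpnmb did not pass the adjustment over all genes. An exact two-sided permutation test of mean FPKM gave p = 0.0286 (n = 4 each), the smallest p the design allows.

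Over 29 other settings the log2 fold change of Gpnmb ranged from 1.56 to 2.38, with an unadjusted p of 0.00244 at most and adjusted p values from 0.0205 to 0.991 from limma. It passed an adjusted p of 0.05 without WT-22 (adjusted p = 0.0487, where 0.696% of all genes passed) and without WT-22 and 5xFAD-21 together (adjusted p = 0.0205). Within the libraries of low unread bases the difference was 2.34 on the log2 scale (3 5xFAD libraries, 1 wild type library), and within those of high unread bases it was 1.00 (1 against 3). Of the 6 melanocyte genes 2 entered the fit, and the list summed to 4.72 to 13.3 FPKM in 5xFAD and 4.07 to 5.56 FPKM in wild type. In that list Tyr, the defining enzyme of pigment synthesis, was listed at 0 in 7 of the 8 libraries and at 0.115 FPKM in 5xFAD-1. The 8 pinealocyte genes summed to 1906 to 3133 FPKM in 5xFAD and 1210 to 2781 FPKM in wild type, and 2 of them, Gngt1 and Sag, passed an unadjusted p of 0.05 as higher, beside 4.57% of all genes. Their part in the Gpnmb result was not tested.

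**Figure D3:**
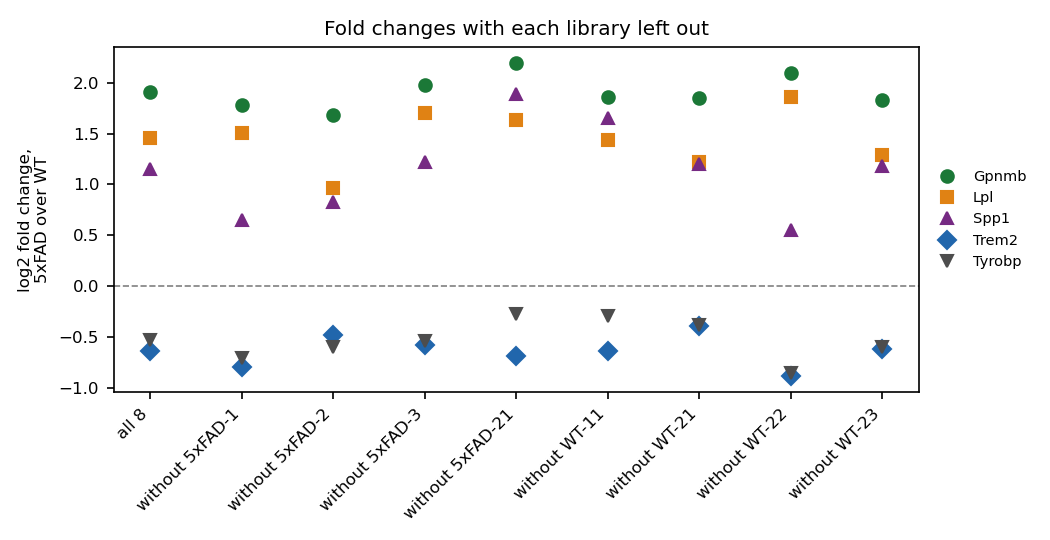
Log2 fold change, 5xFAD over wild type (y axis), of Gpnmb, Lpl, Spp1, Trem2 and Tyrobp with all 8 libraries and with each library left out in turn (x axis). Gpnmb stays between 1.68 and 2.20, while Spp1 spans 0.55 to 1.89, and no gene shown crosses 0.

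Spp1 encodes osteopontin, a secreted ligand of integrins and CD44, and lies on chromosome 5 from 104435118 to 104441050 on the plus strand, where a transcript of unsettled class, Gm42793, overlaps it on the same strand at a mean of 0.697 FPKM. It had 152, 105, 46.2 and 11.5 FPKM in the 5xFAD libraries, against 69.97, 27.1, 7.0 and 26.2 FPKM in the wild type libraries. Among members with no listed 0, these were the widest fold ranges within both groups. The groups overlapped, and 5xFAD-21 lay below 3 wild type libraries. This gave a log2 fold change of 1.15, with an interval of −0.87 to 3.17 (adjusted p = 0.745 from limma). It was 0.55 without WT-22, 0.65 without 5xFAD-1 and 1.89 without 5xFAD-21 (unadjusted p of 0.0332). With a term for low or high share of unread bases the value was −0.10, and within the low and the high set the differences were 0.37 and −0.57.

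Promoter stretches of both genes, from 140 to 41 bases before the RefSeq transcript start, are given to show where a searched motif lies in Spp1 and, for Gpnmb, the same stretch without one. GAGGAAGT is a site of PU.1, the master transcription factor of macrophages, and CACGTG is a site of the MITF and TFEB family, which controls lysosomal genes such as Gpnmb. The capitals mark GAGGAAGT.
Gpnmb, chr6:49036378-49036477, plus strand, GRCm38.p6: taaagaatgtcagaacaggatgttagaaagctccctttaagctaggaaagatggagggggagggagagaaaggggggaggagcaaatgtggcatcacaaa
Spp1, chr5:104434971-104435070, plus strand, GRCm38.p6: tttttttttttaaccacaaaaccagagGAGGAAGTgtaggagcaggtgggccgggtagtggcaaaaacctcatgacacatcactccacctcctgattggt
Searched on both strands in windows from 250 bases before to 50 after the start, available for 8 of the 10 genes (12 windows), GAGGAAGT occurred in 1 window, that of Spp1, at 113 bases before the start. It occurred in 3.2% of the 32851 windows of all genes. CACGTG occurred in none of the 12 windows and in 7.15% of all windows. Of the transcription factors themselves, Spi1, which encodes PU.1, averaged 1.38 ± 0.62 FPKM in 5xFAD and 1.86 ± 0.87 FPKM in wild type (SD, n = 4 each). Mitf averaged 74.2 ± 12.1 FPKM in 5xFAD and 92.3 ± 22.8 FPKM in wild type. Of the 11 factors listed, Nr1h3 passed an unadjusted p of 0.05 as higher and Irf8, a lineage factor of macrophages, as lower (log2 fold change −0.75, adjusted p = 0.609 from limma). Of all genes tested 4.57% passed as higher and 3.36% as lower, and Nr1h3 is the gene already counted among the lipid partners.

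The members differed in which other transcripts they followed from library to library. As a description over 8 libraries, which share their normalization, the Pearson correlation of log2(FPKM + 0.1) between Tyrobp and the mean of the 10 macrophage genes was 0.98 (Spearman 1.00), and 0.94 without the 2 libraries farthest from the median of the macrophage mean. The values were 0.88 and 0.68 for Axl, 0.85 and 0.94 for Itgax, 0.81 and 0.86 for Clec7a, and 0.73 and 0.86 for Trem2. Axl correlated more closely with the homeostatic microglia mean (0.96, and 0.91 without the 2 farthest libraries) and with the mean of 6 endothelial genes (0.94 and 0.85). In Tyrobp and Axl, 5xFAD-21 and WT-22 were the 2 lowest libraries, as in the macrophage list, whereas Trem2 was lowest in 5xFAD-2 and Itgax in 5xFAD-3. All 10 macrophage genes had a log2 fold change below 0, with a median of −0.45, where 51.3% of all genes lay below 0. One of them, Aif1, passed an unadjusted p of 0.05 as lower (log2 fold change −0.69, adjusted p = 0.605 from limma), beside 3.36% of all genes as lower. Without WT-22, 7 of the 10 passed an unadjusted p of 0.05 as lower, beside 18.1% of all genes in either direction. Of the 9 homeostatic microglia genes 8 lay below 0, with a median of −0.38. P2ry12, a purine receptor, averaged 3.32 ± 0.39 FPKM in 5xFAD and 4.21 ± 2.20 FPKM in wild type, and Tmem119 averaged 8.03 ± 4.02 FPKM in 5xFAD and 12.04 ± 6.88 FPKM in wild type (SD, n = 4 each). Neither passed an unadjusted p of 0.05.

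Set against the macrophage mean of the same library, the differences between 5xFAD and wild type were −0.10 for Tyrobp, −0.15 for Itgax, −0.20 for Trem2, −0.42 for Clec7a and 0.30 for Axl on the log2 scale. They were 0.54 for Apoe, 1.58 for Spp1, 1.88 for Lpl and 2.34 for Gpnmb. On this relative scale Gpnmb was again the member tested in the main fit whose groups did not overlap, at −0.99, −0.26, −0.97 and −1.21 in the 5xFAD libraries, against −3.71, −3.71, −1.92 and −3.43 in the wild type libraries. Cst7 also had no overlap on this scale, from few fragments. With the macrophage mean as a covariate, Spp1 had a log2 fold change of 2.42 (unadjusted p of 0.000382, adjusted p = 0.356 from limma) and Gpnmb one of 1.98 (adjusted p = 0.482), and Tyrobp lay at 0.05. In that fit 7.85% of all genes passed an unadjusted p of 0.05.

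**Figure D4:**
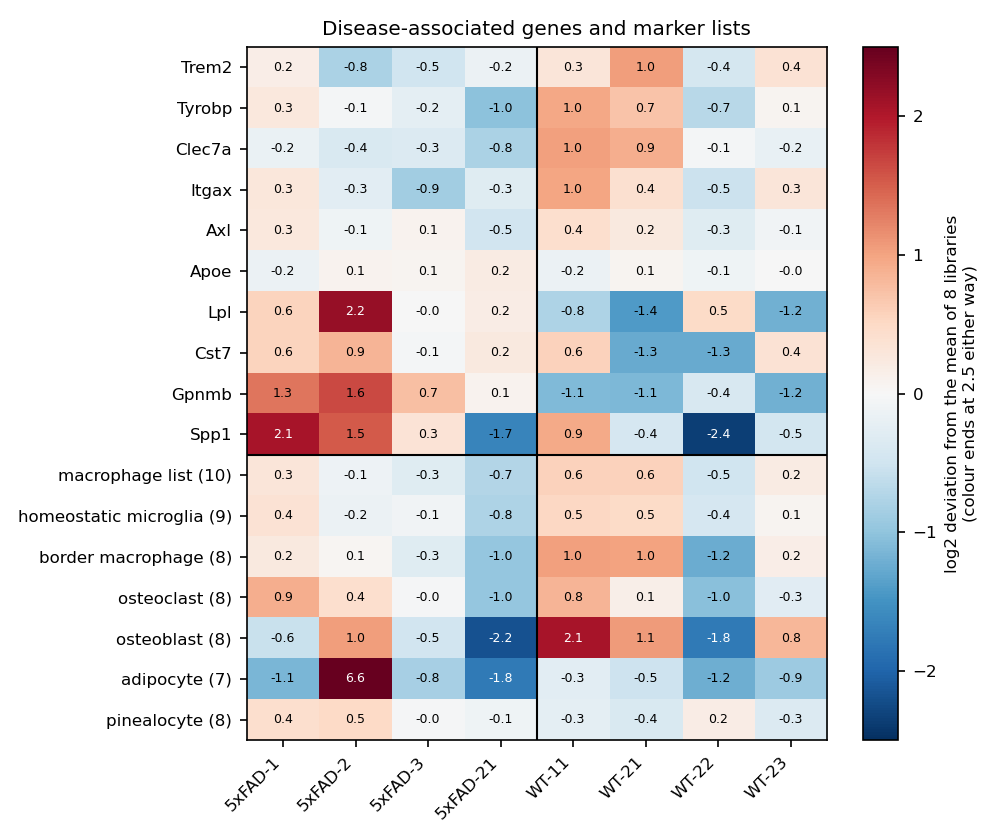
Deviation of each gene (rows above the line) and of each marker list (rows below it, with the number of genes) from its mean over the 8 libraries, on the log2 scale, with 5xFAD libraries left and wild type libraries right. Tyrobp varies as the macrophage list does and Spp1 as the osteoclast list does, and the adipocyte list reaches 6.63 in 5xFAD-2 alone.

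Over the 8 libraries together Spp1 was closest to another list. Its correlation with the mean of 8 osteoclast genes was 0.94 (Spearman 0.95), and 0.82 without the 2 libraries farthest from the median of the osteoclast mean. With the macrophage mean it was 0.56 over the 8 libraries, but 0.96 within 5xFAD and 0.92 within wild type, where the osteoclast mean gave 0.99 and 0.97. Within a group other lists came closer. The mean of 8 border macrophage genes gave 0.9998 in 5xFAD and 0.91 in wild type, and that of 8 neutrophil genes 0.52 and 0.993. Of the 8 osteoclast genes 3 entered the fit, with its minimum mean of 1 FPKM. Acp5, the tartrate-resistant acid phosphatase of osteoclasts, was the protein-coding gene most like Spp1, at 0.97, followed by Rnf139 and Cd109. Acp5 had 13.6, 14.6, 4.83 and 1.11 FPKM in the 5xFAD libraries, against 9.35, 4.62, 1.39 and 3.16 FPKM in the wild type libraries. The osteoclast list summed to 6.44 to 48.6 FPKM in 5xFAD and 7.30 to 55.6 FPKM in wild type, and Ocstamp, which osteoclasts need to fuse, was at most 0.183 FPKM in any library. With the osteoclast mean as a covariate, an alternative added after the values were seen, the log2 fold change of Spp1 was 0.83 (unadjusted p of 0.0032, adjusted p = 0.244 from limma).

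Lpl and Gpnmb shared another pattern. Lpl correlated with the mean of the 8 pinealocyte genes at 0.93 (Spearman 0.98, and 0.95 without the 2 farthest libraries), and Gpnmb at 0.88 (Spearman 0.90, and 0.63 without the 2 farthest). With the mean of the 6 choroid plexus genes Gpnmb correlated at −0.89 (Spearman −0.83, and −0.92 without the 2 farthest). Through Ttr, listed at 0 in every 5xFAD library, that mean was lower in each 5xFAD library than in each wild type library. With the 5 genes other than Ttr, a list cut after the values were seen, Gpnmb correlated at −0.46 (Spearman −0.45, and −0.23 without the 2 farthest). The correlation between Lpl and Gpnmb was 0.87, and that between Lpl and Trem2 was −0.84. The gene most like Gpnmb was Nxt2, at 0.99, and the gene most like Lpl was Vwa7, also at 0.99. Gpnmb correlated with the macrophage mean at −0.36, with the osteoclast mean at 0.25 and with the melanocyte mean at 0.51. Within each group of 4, Gpnmb and the macrophage mean correlated at 0.83 in 5xFAD and −0.90 in wild type. Gpnmb and the pinealocyte mean correlated at 0.945 in 5xFAD and 0.978 in wild type, and Lpl and the pinealocyte mean at 0.80 and 0.99. Within 5xFAD other lists came closer. Gpnmb correlated there at 0.99 with the mean of the lipid partners, and at −0.51 in wild type. With the mean of 28 further genes reported for disease-associated microglia it gave 0.97 in 5xFAD and −0.81 in wild type. Lpl and the adipocyte mean gave 0.96 in 5xFAD and −0.63 in wild type. The pooled correlations include the difference between the groups.

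**Figure D5:**
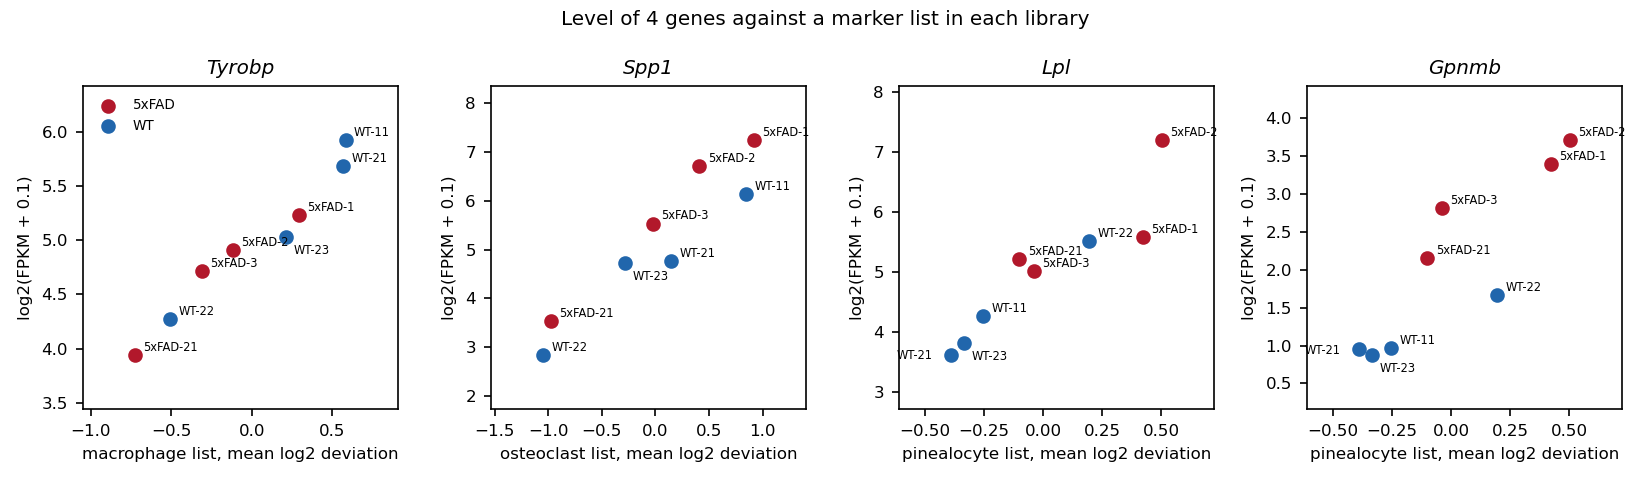
Level of Tyrobp, Spp1, Lpl and Gpnmb, as log2(FPKM + 0.1) (y axis), against the mean log2 deviation of the marker list each is compared with (x axis), 1 point per library, 5xFAD in red and wild type in blue. The points of Tyrobp lie along 1 line (Pearson 0.98), and in Gpnmb WT-22 lies below 5xFAD-3 and 5xFAD-21 although its pinealocyte level is higher.

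Of 28 further genes reported for disease-associated microglia, such as the cathepsins Ctsb, Ctsd and Ctsz, Cd9, Cd63, Cd68, Lyz2, B2m and Fth1, 24 entered the fit. One of the 24 (4.17%), Cd52, a small surface glycoprotein of leukocytes, passed an unadjusted p of 0.05, beside 7.93% of all genes in either direction. It was lower in 5xFAD, with 12.6, 9.59, 9.99 and 6.43 FPKM in the 5xFAD libraries, against 20.0, 23.6, 9.15 and 18.9 FPKM in the wild type libraries (log2 fold change −0.84, adjusted p = 0.597 from limma). Of the 24 genes 13 lay above 0 and 11 below, with a median of 0.04. Without 5xFAD-2, 16 lay below 0 with a median of −0.07. Without WT-22, 15 lay below 0 with a median of −0.18, and Ch25h and Hif1a passed an unadjusted p of 0.05 as higher and Cd52 and Cd74 as lower, beside 18.1% of all genes in either direction. Cd68, a lysosomal protein of macrophages, averaged 7.58 ± 3.40 FPKM in 5xFAD and 7.69 ± 1.58 FPKM in wild type, Ctsd averaged 383 ± 64.0 FPKM in 5xFAD and 405 ± 47.5 FPKM in wild type, and Lgals3, a galectin, averaged 9.90 ± 2.12 FPKM in 5xFAD and 10.7 ± 4.90 FPKM in wild type (SD, n = 4 each). Ch25h, which makes 25-hydroxycholesterol, had the largest positive log2 fold change among the 24, at 0.73 with an interval of −0.04 to 1.51.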

How the data were processed

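RNA of pooled pineal glands was depleted of ribosomal RNA and sequenced as stranded paired-end libraries of 100 cycles, 4 of 5xFAD and 4 of wild type mice. The deposited values are FPKM per gene and library: the authors trimmed reads with Trimmomatic, aligned them to mm10 with STAR and computed FPKM with Cuffnorm on GENCODE M17 (GRCm38.p6). Tool versions and the library normalization in Cuffnorm are not given in the sources used here, and FPKM keeps no total count, so precision was judged from the steps of low values. Library sums of FPKM were 320107 to 391072 over protein-coding genes and 886793 to 1947795 over all rows.

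Of 53710 gene IDs, 53616 matched GENCODE M21 by ID without version, which gave gene types and coordinates. Group differences were tested with the limma package (3.58.1, R 4.3.3), using lmFit and eBayes with a trend, on log2(FPKM + 0.1), two-sided, with no covariate, for protein-coding genes with a mean of at least 1 FPKM, with Benjamini-Hochberg adjustment over all of them. Fold changes on this scale understate the change of low genes. Cst7, under that mean, was tested with no filter, and Clec7a, not protein-coding in M21, over all rows. In simulated data for 13075 genes at 4 against 4 libraries, 62 of 100 genes with a log2 change of 1 were recovered. So were 84 of 100 with one of 2, and 7 of 12875 unchanged genes were called. The simulated noise was drawn independently for each gene, whereas genes of the real libraries vary together. These shares are therefore not the power of the real comparison.

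The members and the lists of partner and marker genes were chosen with earlier results of these data known. The text names all members, the genes most like each, up to 4 genes of a list by p, and genes whose role it explains. The list of melanocyte genes was added after the values were seen, and Xist, Ucp1, Adipoq, Ttr, Tyr and Ocstamp were picked with their values in view, as were list genes named only for fits without a library. A gene of the lipid list is not reported here and was left out of its counts. Lists are described by counts and medians, with no set test. Promoter windows are those of RefSeq on GRCm38.p6. Alternatives were pseudocounts of 0.01 and 1, other filters, median-ratio, quantile and equal-total scaling, a term for low or high share of unread bases, a replicate block, marker means as covariates, a GC trend from M21 transcripts removed by lowess (span 0.3), no trend, array weights, all rows, an exact permutation test and left-out libraries. Osteoclast and adipocyte covariates, the deposited gene class and leaving out WT-22 with 5xFAD-2 were added after the data were seen. The human transgenes were not analysed here. Tables were handled in Python 3.11.15.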

Additional observations from a re-analysis of the deposited data

Results flagged for a closer look

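Among the 20 groups of 4 values formed by the 10 genes, 2 held a value whose gap to its nearest neighbour exceeded Dixon's 95% limit for 4 samples, and chance gives about 1 in 20 such groups. Lpl stood at 147 FPKM in 5xFAD-2, where the other 5xFAD libraries lay between 32.1 and 47.9 FPKM (gap 0.863 of the range). Gpnmb stood at 3.07 FPKM in WT-22, where the other wild type libraries lay between 1.73 and 1.85 FPKM (gap 0.910 of the range). 5xFAD-2 is the library that held Ucp1 at 516 FPKM, and WT-22 is the library that held Xist at 13.3 FPKM. Their part in both values was not tested beyond the fits without these libraries.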

How the results depend on the processing

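The signs of Trem2, Clec7a, Itgax, Apoe, Lpl, Cst7 and Gpnmb held in each alternative run. The values that turned sign were these. Spp1 was −0.10 with a term for low or high share of unread bases, Tyrobp 0.053 and Axl 0.14 with the macrophage mean as a covariate, and Axl 0.044 with the osteoblast mean as a covariate. Leaving out 1 library, Axl ranged from −0.25 without WT-22 to 0.014 without 5xFAD-21. The cause was not tested. Genes past an adjusted p of 0.05 from limma numbered 4, but 7 with no filter, 0 over genes above 0 in every library (where genes listed at 0 leave the test), 8 with array weights, 8 over all rows, 28 without WT-22 and 5xFAD-21, 39 without WT-22 and 5xFAD-2, and 4 to 91 leaving out 1 library, the highest without WT-22, and 4 to 6 in the remaining settings. Members past an unadjusted p of 0.05 numbered 2, beside 7.93% of all genes. The count was 4 with array weights (14.2%), 5 without WT-22 and 5xFAD-21 (15.6%), and 4 without WT-22 and 5xFAD-2 (15.8%). It was 4 with the osteoclast mean as a covariate (13.1%), and 3 over all rows (8.36%), where Clec7a was added. With the osteoblast mean as a covariate it was 3, and leaving out 1 library 1 to 5. Shares of all genes are given where they were counted, and a count of members without a share has no background to be read against. With a term for low or high share of unread bases the 2 were Gpnmb and Tyrobp. With the macrophage mean as a covariate they were Gpnmb and Spp1 (7.85%). Members past an adjusted p of 0.05 numbered 0, but 1 without WT-22 and 5xFAD-21 and 0 to 1 leaving out 1 library. The median over the members moved to 0.63 at a minimum mean of 5 FPKM, which leaves 6 of them. Replicate numbers did not pair the samples (correlations of same-numbered deviations of −0.04, 0.20, −0.34 and 0.25): with the replicate block 1 member passed an unadjusted p of 0.05, Gpnmb, at 0.00105 (adjusted p = 0.844). The few fragments of Cst7 and the low level of Itgax limit what these libraries can show.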
